A study of Mus musculus with 5 samples.

Results

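Mitochondrial ribosomal proteins were examined as the 78 genes, of 55291 gene symbols counted, whose symbols are Mrps or Mrpl followed by a number and at most 1 letter. Of these, 29 carry the small subunit prefix Mrps and 49 the large subunit prefix Mrpl. Names alone chose the members, and all 78 had enough counts to enter the test. The values come from bulk RNA sequencing of mouse bone marrow cells labelled as monocytes. There were 3 samples of wild type, numbered 1, 2 and 3, and 2 Tet2-mutant samples, numbered 2 and 3. The Tet2 protein starts the removal of DNA methylation by oxidising methylcytosine, and mutations of its gene recur in blood cancers. The labels give the genotypes as wildtype and Tet2 mutant with no treatment. The sources used here do not give the allele, strain, age or sex of the mice, how the cells were isolated, or what HR means in the titles of mutant samples.

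Mitochondrial ribosomes translate the messenger RNAs that the mitochondrial genome itself encodes, all of which specify core subunits of the respiratory chain and ATP synthase. Their ribosomal RNAs are made inside the organelle, whereas every protein subunit is encoded in the nucleus, made in the cytosol and imported. Many subunits have a counterpart in the bacterial ribosome, and others are found only in mitochondrial ribosomes. Nearly all symbols name the subunit in which the protein sits. The exceptions by structure are Mrps18a and Mrps30, whose proteins lie in the large subunit, and Mrps36, whose product is a component of the oxoglutarate dehydrogenase complex.

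Library totals ran from 17459808 counts (Tet2-mutant replicate 2) to 72414875 (wild-type replicate 2). Genes with any count numbered 24532, 25612 and 26207 in wild-type replicates 1, 2 and 3. They numbered 18047 and 17944 in Tet2-mutant replicates 2 and 3, although replicate 3 had 60508381 counts, near the 63910147 of wild-type replicate 1. The Tet2 gene had 9.77 to 11.9 CPM (CPM being the usual scaling of counts to a common library size, here with totals adjusted by TMM, a method that balances the bulk of genes between libraries) in wild-type libraries, 5.31 CPM in the library of Tet2-mutant replicate 2 and 15.6 CPM in that of replicate 3. The TMM factors were 1.17, 1.16 and 1.14 in wild-type replicates 1, 2 and 3 and 0.72 and 0.90 in Tet2-mutant replicates 2 and 3. The part of these differences in the members' values was not tested. Besides monocyte transcripts the libraries held those of other cells. Summed neutrophil and precursor markers (17 genes) stood at 51780 to 64488 CPM in the wild type, against 15158 to 17520 CPM for 14 monocyte markers. Of the counts, 86921 fell on the members in Tet2-mutant replicate 2 and 199476 to 321354 in the other libraries. Nothing in the labels says that each sample is a separate animal, so the p-values reflect no more than the spread among these libraries, and that spread may be technical.

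The genes of the mitochondrial ribosome stood at higher levels in the Tet2-mutant libraries than in the wild type, by about the same step in both subunits. Their summed level was 2673 (replicate 1), 3761 (replicate 2) and 3575 CPM (replicate 3) in the wild type, against 6886 (replicate 2) and 5932 CPM (replicate 3) in the mutant, so the groups did not overlap. The wild-type mean was 3337 ± 582 CPM (SD, n = 3), and the mutant mean of 6409 ± 675 CPM (SD, n = 2) was 1.92 times as high. Of the 78 genes, 23 rose and 0 fell (quasi-likelihood F-test of edgeR, adjusted p under 0.05 by Benjamini-Hochberg over 17062 genes), or 29.5% called higher against 10.6% of all genes tested. In either direction 15.0% of all genes were called, and 4.43% were called lower. At an unadjusted p under 0.05, 2 members were lower, and DESeq2 also called 2 lower. The median log2 fold change of the members was 0.94, beside -0.07 over all tested genes. Both mutant libraries lay above every wild-type library for 59 members, against 22.9% of all tested genes. They lay below every wild-type library for 2 members, Mrpl9 and Mrpl53, against 33.3% of all tested genes.

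The size of the rise and the number of calls depended on the scaling and on single libraries. As a plain share of all counts, the members took 0.312%, 0.436% and 0.407% in wild-type replicates 1, 2 and 3 and 0.498% and 0.531% in Tet2-mutant replicates 2 and 3, a ratio of means of 1.34. With libraries scaled by their totals alone, 7 members were called higher and 2 lower, and the members' median was 0.42 with the median of all genes at -0.58. That scaling turned the split over all genes from 1801 higher and 755 lower (70.5% higher) to 1181 and 2877 (29.1% higher), and upper-quartile scaling gave 1419 and 1837 (43.6% higher). The distance between the members' median and that of all genes was 1.01 with TMM, 0.9993 with library totals and 0.9989 with upper quartiles. A change of scaling shifts all genes by nearly the same amount, so this distance could hardly move and decides nothing. It was 2.30 with no filter and 0.82 with at least 1 CPM in 3 libraries. With single libraries left out it ran from 0.78 (wild-type replicate 1) to 1.53 (Tet2-mutant replicate 3). Members called higher numbered 4, 8 and 7 without wild-type replicates 1, 2 and 3, where 3.81%, 5.41% and 5.09% of all tested genes were called higher. They numbered 50 and 45 without Tet2-mutant replicates 2 and 3, with 26.5% and 21.04% of all genes, where the spread of the 1 mutant library left was taken from the wild type. Mrpl17, Mrpl21, Mrpl42 and Mrps34 were called higher in each of these fits and with each scaling.

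**Figure D1:**
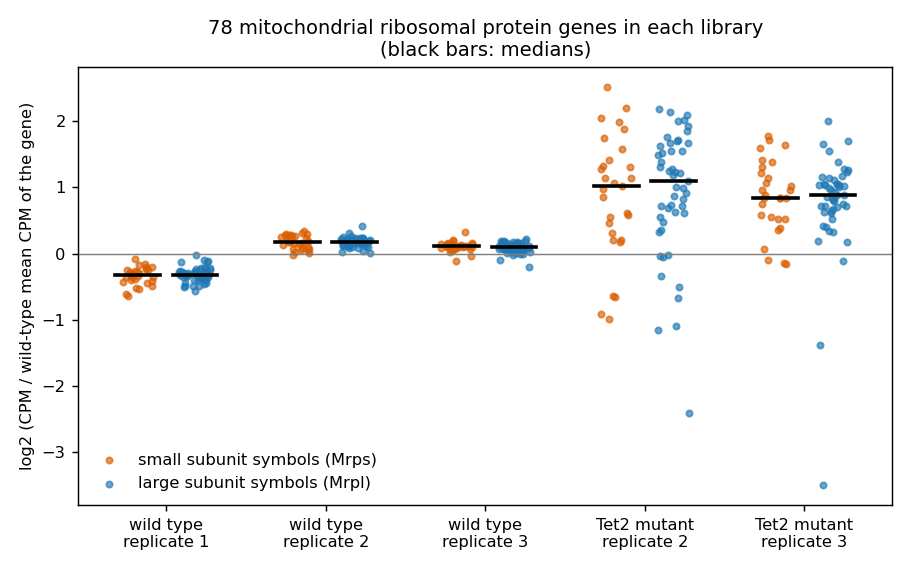
Each point is 1 of the 78 genes in 1 library, plotted as the log2 of its CPM over its own wild-type mean, with small subunit symbols in orange, large subunit symbols in blue and black bars at the medians. The medians over all members were -0.32, 0.17 and 0.11 in wild-type replicates 1, 2 and 3 and 1.05 and 0.87 in Tet2-mutant replicates 2 and 3, with a wide spread of genes in the mutant libraries.

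Wild-type replicate 1 stood apart from the other wild-type libraries in these genes. All 78 members were lowest there among the wild-type libraries, and their summed level was 71.1% of that in wild-type replicate 2. Within the wild type the highest library exceeded the lowest by a median of 0.50 on the log2 scale over the members, and by 0.92 at most. The relative order of the members was nevertheless close between wild-type libraries. Spearman's rho over the 78 levels was 0.970 to 0.987 between wild-type libraries, 0.864 to 0.888 between them and Tet2-mutant replicate 3, and 0.644 to 0.668 between them and Tet2-mutant replicate 2. Between the mutant libraries it was 0.629. These are descriptions across genes, whose lengths the libraries share, and genes are not independent replicates.

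In the large subunit 15 of 49 genes rose. Mrpl42 (chromosome 10, 95480805 to 95501940 in GRCm38), a subunit protein found only in mitochondria, had the smallest p. Its wild-type libraries had 43.1, 58.9 and 55.2 CPM, and Tet2-mutant replicates 2 and 3 had 166 and 211 CPM. The mutant libraries were thus well apart from the wild type, and replicate 3 was the higher (log2 fold change 1.85 ± 0.26 SE, adjusted p = 0.00731). Mrpl21 (chromosome 19, 3282901 to 3292837), a homologue of bacterial L21, was at 17.99, 26.6 and 26.6 CPM against 101 and 75.1 CPM (1.89 ± 0.32, adjusted p = 0.0139), again without overlap. Mrpl32, whose maturation by a mitochondrial protease is a known step of ribosome assembly, was at 28.0, 39.7 and 37.6 CPM against 159 and 84.8 CPM (1.80 ± 0.34, adjusted p = 0.0209). Both mutant libraries lay above the wild type, and replicate 2 was the higher. Mrpl35 and Mrpl17, both with bacterial homologues, rose by 1.63 ± 0.31 and 1.44 ± 0.28 on the log2 scale (adjusted p = 0.0209 and 0.021).

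Mrpl4, which lines the peptide exit tunnel, rose from a mean of 76.5 ± 5.99 CPM (SD, n = 3) to one of 170 ± 26.8 CPM (SD, n = 2; log2 fold change 1.15 ± 0.24, adjusted p = 0.0265). Mrpl1, of the L1 stalk where tRNAs leave the ribosome, rose from 34.8 ± 4.84 to 84.9 ± 17.9 CPM (1.29 ± 0.29, adjusted p = 0.0334). Mrpl30 rose from 29.7 ± 3.58 to 78.3 ± 25.1 CPM (1.40 ± 0.31, adjusted p = 0.0335). Mrpl58, also known as ICT1, is a peptidyl-tRNA hydrolase built into the large subunit that can release stalled chains. It was at 29.5, 39.9 and 34.0 CPM against 153 and 56.5 CPM (adjusted p = 0.0474), so Tet2-mutant replicate 2 was far above replicate 3. The other large subunit genes that rose were Mrpl55, Mrpl16, Mrpl44, Mrpl13, Mrpl20 and Mrpl40, with log2 fold changes of 1.06 (Mrpl40) to 1.65 (Mrpl55).

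In the small subunit 8 of 29 genes rose. Mrps34 (chromosome 17, 24895116 to 24897502), found only in mitochondria, had wild-type levels of 14.05, 18.2 and 19.0 CPM and mutant levels of 70.3 and 56.2 CPM (log2 fold change 1.89 ± 0.31, adjusted p = 0.0135). Of its exon bases 62.7% overlap Mapk8ip3 on the other strand. Mrps11, which helps form the platform of the small subunit, was at 27.1, 32.7 and 33.4 CPM against 143 and 68.3 CPM (1.77 ± 0.36, adjusted p = 0.0256). Mrps12 belongs to the decoding centre, and its bacterial homologue is where streptomycin resistance mutations arise. It was at 27.1, 51.4 and 46.3 CPM against 124 and 108 CPM (1.48 ± 0.33, adjusted p = 0.0326), with the mutant libraries close together. Mrps24, Mrps17, Mrps18c, Mrps15 and Mrps23 also rose, with log2 fold changes of 1.10 (Mrps15) to 1.53 (Mrps18c).

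**Figure D2:**
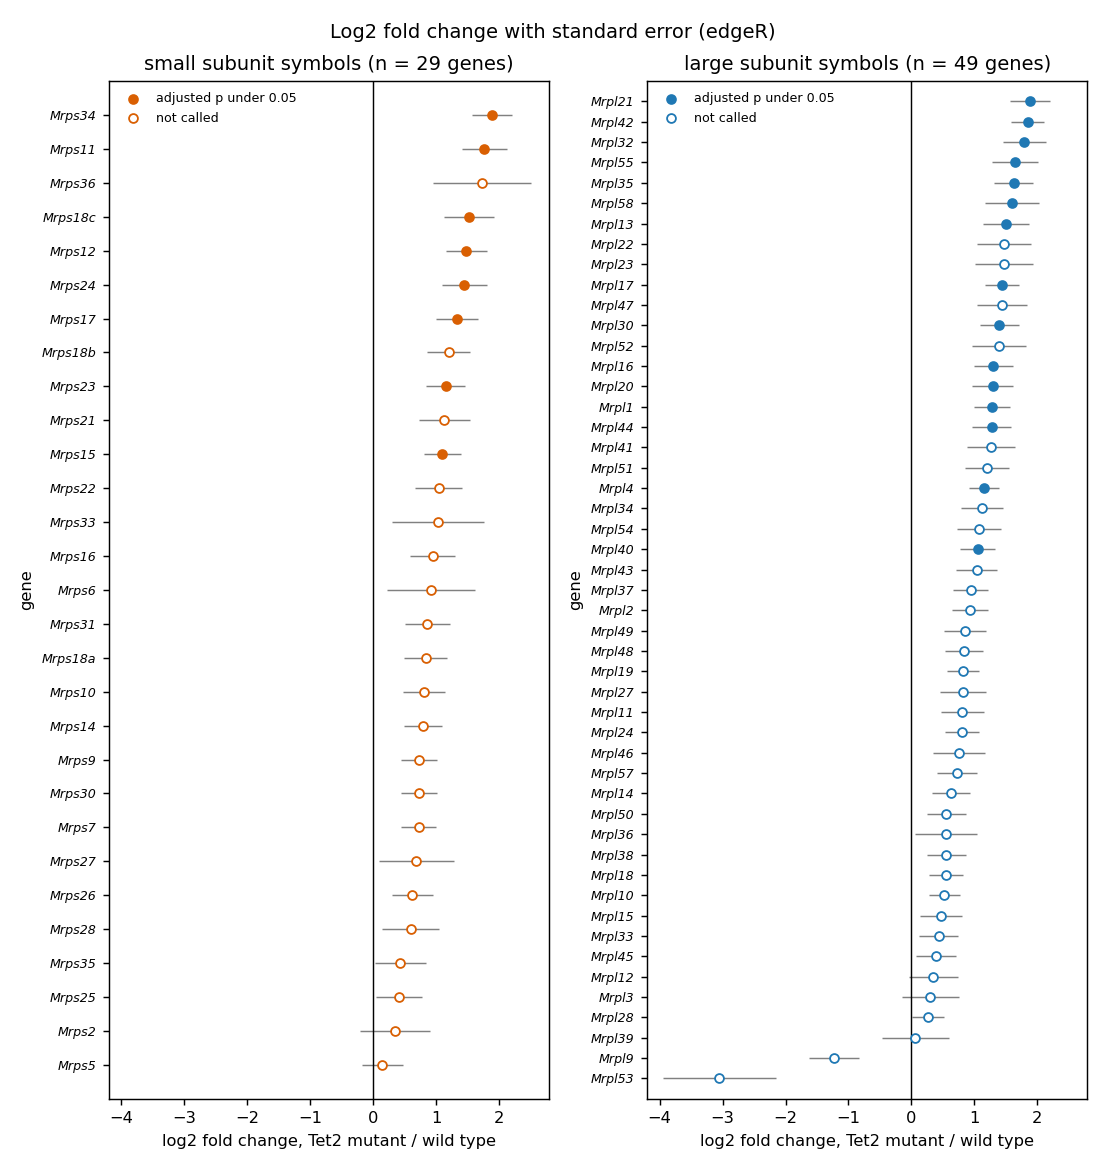
Log2 fold change of Tet2 mutant over wild type (horizontal axis) for every member, sorted within the small and the large subunit symbols, with bars of 1 standard error. Filled points are the 23 genes with an adjusted p under 0.05, and open points are the rest. The estimates lay between -3.05 (Mrpl53) and 1.89 (Mrpl21), and 76 of 78 were above 0.

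Of the 55 members without a call, 53 had an estimate above 0 (0.06 to 1.73) and 36 had both mutant libraries above the highest wild-type library. For 20 of the 55 the adjusted p was under 0.1. Mrpl28 was at 144, 199 and 201 CPM against 231 and 206 CPM (log2 fold change 0.27 ± 0.25, adjusted p = 0.444), so that the lower mutant library lay just above the wild type. Its estimate was below 0 with libraries scaled by upper quartiles (-0.02) or by totals (-0.25). For 17 members the libraries of the genotypes overlapped. Mrpl12, whose copies form the stalk that recruits translation factors, was at 65.2, 104 and 104 CPM against 72.3 and 160 CPM (0.35 ± 0.39, adjusted p = 0.52), with 1 mutant library inside the wild-type range and the other above it. Scaled by library totals its estimate was -0.10, and without Tet2-mutant replicate 3 it was -0.34.

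The members with estimates below 0 were Mrpl9 and Mrpl53. Both were called lower with upper-quartile scaling, with library totals and with DESeq2, but not with edgeR and TMM. Neither was called with a replicate block, with no filter or without any single wild-type library. Mrpl9, of the large subunit, had wild-type levels of 25.3, 41.9 and 27.3 CPM and mutant levels of 14.8 and 12.1 CPM (log2 fold change -1.23 ± 0.40, adjusted p = 0.0717). Both mutant libraries lay below the wild type, whereas 59 of the 78 members had both above it. Mrpl53 had only 29, 40 and 24 counts in the wild type and 1 and 2 counts in the mutant libraries. The ratio of mutant to wild type was 0.106, with an exact 95% interval of 0.0215 to 0.320 that covers counting error only (adjusted p = 0.0591). All of its exon bases (100%) are shared with another annotated gene, Gm42688, so its counts are uncertain.

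By subunit symbols, 8 of 29 small and 15 of 49 large subunit genes rose, or 27.6% and 30.6%. The medians of the log2 fold change were 0.92 and 0.94, and the quartiles were 0.72 and 1.20 in the small and 0.56 and 1.39 in the large subunit. The small subunit symbols made up 30.3%, 31.2% and 30.9% of the members' summed CPM in wild-type replicates 1, 2 and 3 and 32.2% and 31.9% in Tet2-mutant replicates 2 and 3. The share differed by less than 2 percentage points between any libraries, although the mutant libraries were both above the wild type. With Mrps18a and Mrps30 counted in the large subunit and Mrps36 left out, 8 of 26 and 15 of 51 rose, and the medians were 0.93 and 0.93. The difference between subunits was not tested, since genes are not replicates of a condition.

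Grouped by the protein names used in the structure, 17 of 46 named after a bacterial ribosomal protein rose, or 37.0%. Of 31 named as particular to mitochondrial ribosomes 6 rose, or 19.4%. Over all tested genes 10.6% were called higher, and 18.6% of coding genes between the quartiles of the members' exon lengths. The median exon lengths of these classes were 1221 and 1498 bases. The median log2 fold changes of these classes were 0.94 and 0.86. The second class goes by name alone, and it holds Mrps18a and Mrps18b, which are relatives of bacterial S18. In the small subunit the counts were 6 of 16 and 2 of 10, and in the large subunit 11 of 30 and 4 of 21. The share called was lower in the second class in both subunits while the medians were close, and this difference was not tested.

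The Mrps18 genes encode relatives of bacterial S18 that sit in different places. Mrps18c, in the place of the bacterial protein in the small subunit, was at 27.6, 45.7 and 38.7 CPM against 149 and 66.9 CPM (log2 fold change 1.53 ± 0.40, adjusted p = 0.0456). Mrps18b, elsewhere in the small subunit, was at 12.1, 14.1 and 14.9 CPM against 34.3 and 28.6 CPM (1.20 ± 0.35, adjusted p = 0.0562). Of its exon bases 59.1% overlap an antisense gene, Gm16279, whose reads cannot be told apart where strand is unknown. Mrps18a, in the large subunit, was at 35.8, 47.2 and 46.3 CPM against 53.4 and 100 CPM (0.84 ± 0.34, adjusted p = 0.119). Mrps18c was thus the called member of the 3 with edgeR, while the Wald test of DESeq2 called both Mrps18c and Mrps18b (adjusted p = 0.018 and 0.00576). In all 3 both mutant libraries lay above every wild-type library, which held for 59 of the 78 members and 22.9% of all tested genes. Mrps30 was at 69.8, 94.8 and 90.1 CPM against 173 and 109 CPM (0.73 ± 0.29, adjusted p = 0.113). Mrps36 was at 3.54, 4.73 and 5.91 CPM against 27.2 CPM in replicate 2 of the mutant and 4.26 CPM in its replicate 3, the latter inside the wild-type range (adjusted p = 0.143). Without replicate 2 its estimate was -0.15.

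Divided by exon length, the members' levels spanned a wide range. Mrpl33, Mrpl28 and Mrpl18 were the highest in the wild type, at 232 ± 13.9, 170 ± 30.5 and 125 ± 27.8 CPM per kilobase (SD, n = 3). In each wild-type library Mrpl28 was above Mrpl18. They stood at 135, 186 and 189 against 94.8, 150 and 130 CPM per kilobase in wild-type replicates 1, 2 and 3. The lowest were Mrpl53, Mrpl47 and Mrps33, at 0.603 ± 0.072, 3.76 ± 0.710 and 3.999 ± 0.957 CPM per kilobase, and Mrpl47 and Mrps33 did not differ beyond their spread. The median member in the wild type stood at 15.3 to 20.7 CPM per kilobase in the small and 23.6 to 31.8 in the large subunit. In Tet2-mutant replicates 2 and 3 these medians were 40.3 and 38.7 for the small and 52.9 and 47.7 for the large subunit. The 3 highest genes per length were not called, and 2 of them, Mrpl28 and Mrpl18, had both mutant libraries above the highest wild-type library.

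The 2 mutant libraries did not raise the same members to the same extent. Of the 78 genes, 49 were higher in Tet2-mutant replicate 2 and 29 in replicate 3. The difference was at least 2-fold for 12 genes in favour of replicate 2 and for 10 in favour of replicate 3, and 56 were closer than that. Mrps27, which binds the small ribosomal RNA and was picked after its values were seen, had 25.7, 27.5 and 28.4 CPM in the wild type, 14.5 CPM in replicate 2 of the mutant and 72.7 CPM in its replicate 3. Mrps33 followed the same order with 4.96, 7.80 and 5.70 CPM, then 3.96 and 21.1 CPM, and Mrpl39 with 25.7, 37.0 and 31.3 CPM, then 14.02 and 51.2 CPM. Without Tet2-mutant replicate 3 the estimates of Mrps33 and Mrpl39 were -0.64 and -1.17. In each of these genes 1 mutant library lay below and the other above the wild type. In all, 11 members lay below the wild-type mean in Tet2-mutant replicate 2 and above it in replicate 3, and 4 (Mrpl33, Mrps28, Mrps35 and Mrps36) the other way round. Across the 78 members the log2 ratios to the wild-type mean had a Spearman's rho of 0.13 and a Pearson's r of 0.35 between the mutant libraries, which share that mean as denominator. Of the 23 called genes, 21 were higher in replicate 2 than in replicate 3.

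**Figure D3:**
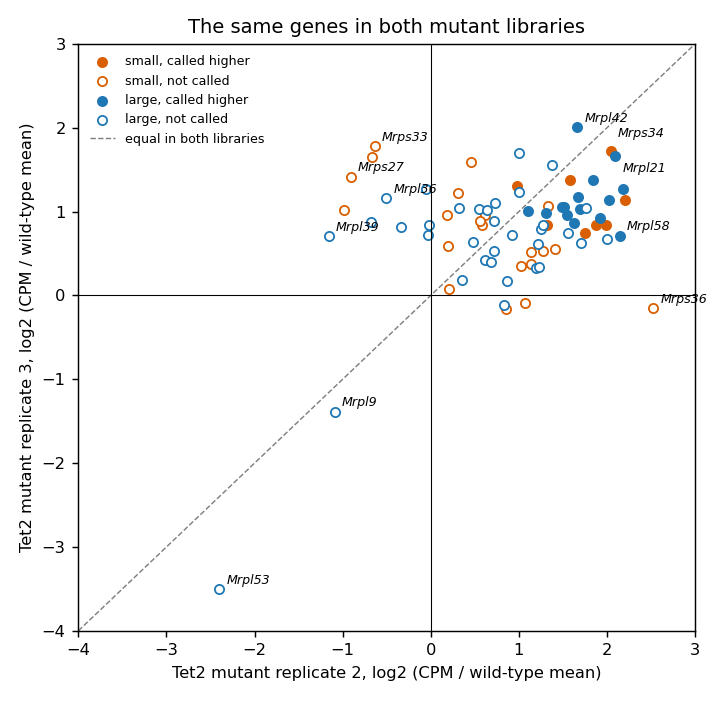
Each point is a member, with the log2 of CPM over the wild-type mean in Tet2-mutant replicate 2 (horizontal axis) and replicate 3 (vertical axis), filled where called higher, and a dashed line of equality. Called genes lie at the upper right, Mrpl9 and Mrpl53 at the lower left, and 11 members, with Mrps27, Mrps33 and Mrpl39 among them, lie at the upper left.

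Mitochondrial ribosomal genes are short, and short genes as a class were higher in the mutant libraries. The median exon length was 1380.5 bases for the members and 3213 bases for the 13333 protein-coding genes tested. In the shortest sixth of those genes (255 to 1649 bases) the median log2 fold change was 0.74 and 25.4% were called higher. That sixth holds 48 of the members, whose own median was 1.09 with 17 called higher. The median of all coding genes was 0.27 in the next sixth and between -0.27 and -0.03 in the 4 longer ones, where the medians of the 3 to 7 members each were 0.62 to 1.34. Over the 4440 coding genes between the quartiles of the members' exon lengths (967.75 to 2595 bases), 18.6% were called higher and the median was 0.41. The part of length in the members' values was not tested.

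**Figure D4:**
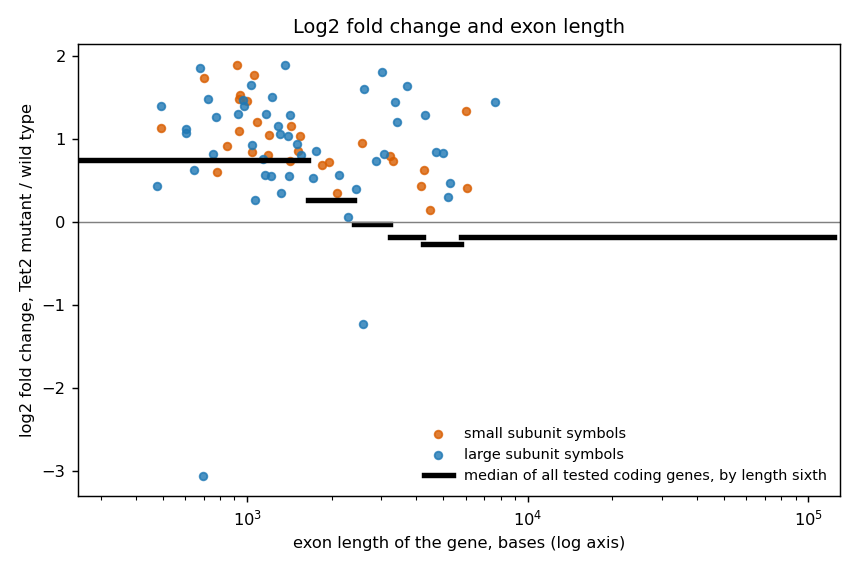
Log2 fold change of Tet2 mutant over wild type (vertical axis) against exon length on a log axis for the 78 members, with black lines for the median of all 13333 tested coding genes in sixths of exon length. The black lines fall from 0.74 in the shortest sixth to below 0 in the 4 longest, and in every sixth the median of the members lies above the line.

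Other genes of mitochondrial translation are given beside the 10.6% called higher and 4.43% called lower over all genes. Subunits of the same ribosome with other names gave 0 calls of 5 with edgeR and 0 with DESeq2. With edgeR 2 had an unadjusted p under 0.05, and the median log2 fold change was 0.36. Library totals gave 0 higher and 1 lower with a median of -0.11, and upper quartiles 0 higher and 1 lower with 0.13. Over all 17062 genes those scalings called 2877 and 1837 lower. Aurkaip1, a small subunit protein, was at 88.2, 140 and 118 CPM against 188 and 189 CPM (adjusted p = 0.101). Ptcd3, which binds the small ribosomal RNA and was picked after its values were seen, was at 85.2, 81.3 and 90.3 CPM against 60.5 and 50.1 CPM (adjusted p = 0.113), below the wild type in both mutant libraries. Among 25 assembly factors 3 rose, or 12%, a share near that of all genes, and the median was -0.06. Their median exon length was 2014 bases, and all coding genes of 1650 to 2395 bases had a median of 0.27. Scaled by library totals, 0 assembly factors were called higher and 1 lower with a median of -0.48, and DESeq2 called 5 higher and 2 lower. Malsu1, which keeps the subunits of an immature ribosome apart, was at 14.5, 16.1 and 15.2 CPM against 46.8 and 34.7 CPM (log2 fold change 1.41 ± 0.33, adjusted p = 0.0364). Mpv17l2, needed for assembly of the ribosome, was at 31.5, 41.1 and 45.2 CPM against 149 and 69.6 CPM (adjusted p = 0.0425).

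Of 14 translation factors and partners of mitochondrial messenger RNA, with a median exon length of 2702 bases, 1 rose (7.14%) and 1 fell. Beside 10.6% of all genes called higher and 4.43% called lower, these single calls do not set the list apart. All coding genes of 2396 to 3213 bases had a median log2 fold change of -0.03, and the median of this list was -0.01. That median was 0.03 with DESeq2's size factors, -0.34 with upper quartiles (0 called higher, 1 lower) and -0.56 with library totals (0 higher, 2 lower). The 2 genes called, Slirp and Lrpprc, encode partners of one complex that stabilises mitochondrial messenger RNAs, and they went opposite ways. Slirp was at 2.35, 3.85 and 3.92 CPM against 12.3 and 19.6 CPM (log2 fold change 2.24 ± 0.55, adjusted p = 0.0407). Lrpprc was at 46.3, 40.8 and 40.9 CPM against 13.9 and 16.4 CPM (-1.49 ± 0.32, adjusted p = 0.0301). Of 11 genes of mitochondrial transcription and DNA replication 1 rose, or 9.09%. Tefm, the elongation factor of the mitochondrial RNA polymerase, rose from 13.5 ± 1.70 to 43.3 ± 0.900 CPM (adjusted p = 0.0219). Among 13 regulators of mitochondrial biogenesis 1 fell, Max, the partner of Myc (-1.70 ± 0.38, adjusted p = 0.0338), and the list median was -0.52. The list's median exon length was 5256 bases, and all coding genes of 4215 to 5797 bases had a median of -0.27. Single calls do not set the transcription and biogenesis lists apart from all genes either. Without wild-type replicate 1, 2 or 3, no gene of the lists of assembly, translation, transcription and biogenesis genes was called. In those fits 3.81%, 5.41% and 5.09% of all tested genes were called higher. Without Tet2-mutant replicate 2 the medians were 0.11 for assembly, 0.15 for translation, 0.60 for transcription and -0.42 for biogenesis, with -0.30 over all genes. Without Tet2-mutant replicate 3 they were -0.26, -0.28, 0.15 and -0.49, in the same order, with -0.49 over all genes.

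Nuclear genes of the respiratory chain encode proteins that join those made on mitochondrial ribosomes. Of 74 such genes, with those of ATP synthase, 27 rose, or 36.5%. Their log2 fold changes had a median of 0.95, and their exons a median summed length of 992 bases. Ndufa7, an accessory subunit of complex I, was at 35.1, 46.6 and 44.0 CPM against 108 and 116 CPM (1.42 ± 0.26, adjusted p = 0.0178). Ndufs3, of the complex I core, was at 33.8, 44.5 and 47.0 CPM against 157 and 102 CPM (adjusted p = 0.0182). Of 15 transcripts of the mitochondrial genome 9 were tested and 2 rose, mt-Nd2 and mt-Cytb, with a median of 0.59. In the wild type 5 of the 15 had no count in any library (mt-Atp6, mt-Atp8, mt-Co2, mt-Nd3 and mt-Nd4l). In the mutant 5 had none (mt-Atp8, mt-Co2, mt-Co3, mt-Nd3 and mt-Nd4l). The counts thus cover the mitochondrial genome only in part, for a reason that was not tested. Of 31 other mitochondrial enzymes, channels and chaperones 7 rose, with a median of 0.43, among them the nucleotide carriers Slc25a4 (1.998 ± 0.241, adjusted p = 0.0043) and Slc25a5 (1.42 ± 0.25, adjusted p = 0.0156). With libraries scaled by their totals alone, the respiratory chain list had 8 called higher and a median of 0.39, and the list of other enzymes had 2 higher and 6 lower with a median of -0.12. Without wild-type replicates 1, 2 and 3 the respiratory chain list had 5, 13 and 8 called higher. In those fits 3.81%, 5.41% and 5.09% of all tested genes were called higher. Without Tet2-mutant replicates 2 and 3 the median of the respiratory chain list was 0.76 and 1.08. Differences between these lists and the ribosomal proteins were not tested.

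**Figure D5:**
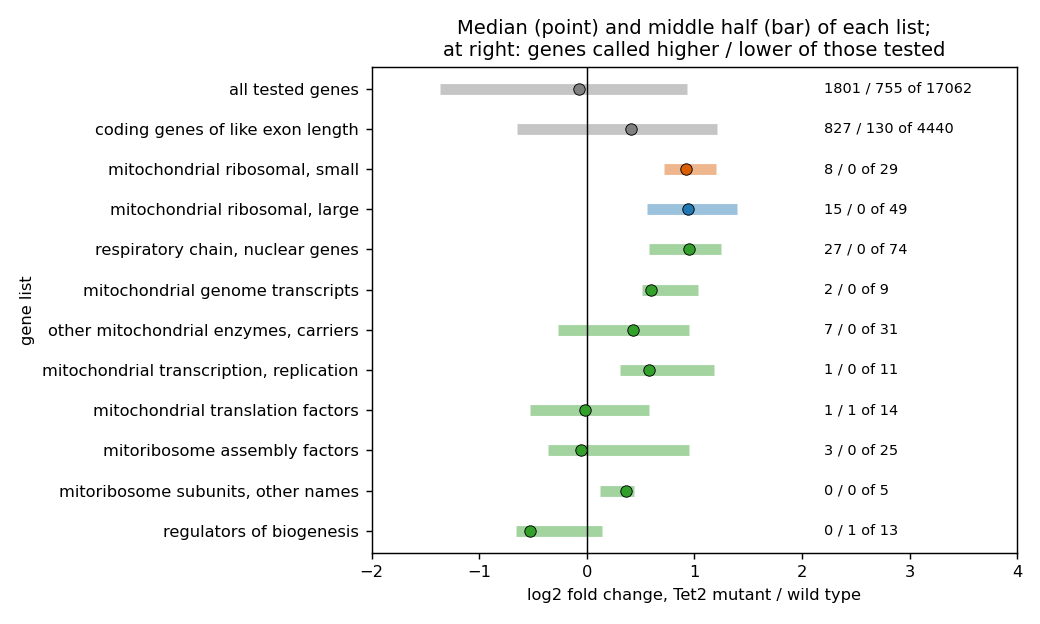
Median (point) and quartiles (bar) of the log2 fold change for each gene list, with the number called higher, called lower and tested at the right. Small and large mitochondrial ribosomal symbols and the nuclear respiratory chain have medians of 0.92, 0.94 and 0.95. Assembly factors and translation factors lie at -0.06 and -0.01. In the same order, the median exon lengths were 1418, 1363, 992, 2014 and 2702 bases. The part of length in these medians was not tested.

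Markers of other cell types moved with genotype beside these values, and their part in the ribosomal result was not tested. Of macrophage, dendritic cell, T and NK cell, and B cell markers, 13 of 14, 5 of 11, 5 of 12 and 3 of 12 rose, and 11 of 11 tested pancreatic acinar genes did (Amy2a5 had no count in any library). Over all tested genes 10.6% were called higher. Summed macrophage markers were at 664 to 804 CPM in the wild type and 7834 to 8757 CPM in the mutant. The B cell sum was 1169 to 5297 CPM in the wild type, 6479 CPM in replicate 2 of the mutant and 18486 CPM in its replicate 3. Dendritic cell markers summed to 160 to 201 against 898 to 1049 CPM, T and NK cell markers to 298 to 360 against 1519 to 2091 CPM, and acinar genes to 40.3 to 56.5 against 675 to 1798 CPM. Of 14 monocyte markers 3 rose and 1 fell (Itgam), and they summed to 31415 CPM in replicate 2 of the mutant and 20085 CPM in its replicate 3. In the other direction, 1 of 20 cell cycle genes (Gins2), 1 of 10 erythroid genes (Epor) and 1 of 17 neutrophil genes (Padi4) fell. Beside 4.43% of all tested genes called lower, these single calls do not set the lists apart. All 20 cell cycle genes had estimates below 0 (median -1.34). For 18 both mutant libraries lay below the wild type, against 33.3% of all tested genes. With library totals, the counts called lower for cell cycle, neutrophil and erythroid genes were 12, 11 and 2, beside 2877 of all 17062 genes. They were 18, 11 and 4 with no filter (1498 of 30639 genes) and 17, 9 and 7 with a replicate block (250 of 16164). Without Tet2-mutant replicate 2 the medians of the 3 lists were -2.75, -2.88 and -3.11, with -0.30 over all genes. Without Tet2-mutant replicate 3 they were -0.67, -0.68 and 0.04, with -0.49 over all genes. Without wild-type replicate 1 none of the 3 lists had a call. B cell markers had 0 called higher without wild-type replicate 1 or 3 or Tet2-mutant replicate 3, and 7 with a replicate block or no filter. Macrophage markers called higher numbered 8 to 13 over all the fits run, and dendritic cell markers 4 to 9. T and NK cell markers numbered 5 to 9, and acinar genes 8 to 11 except with at least 1 CPM in 3 libraries, where 2 were called. Neutrophil markers summed to 56117 CPM in replicate 2 of the mutant and 24300 CPM in its replicate 3, cell cycle genes to 4121 and 1007 CPM against 5352 to 7115 CPM in the wild type, and erythroid genes to 14175 and 2081 CPM against 6413 to 16764 CPM. In bulk RNA a change in the share of a cell type and a change in transcripts per cell cannot be told apart.

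Exon overlap with other genes bears on single values, since the sources used here do not give the strand setting of the counting. Some exon bases were shared with another annotated gene for 30 of the 78 members, against 31.8% of all tested genes with an annotation. For 4 members the overlap was above 50%, namely Mrpl53, Mrps25 (75.6%, antisense to Nr2c2), Mrps34 (62.7%, antisense to Mapk8ip3) and Mrps18b. Among the 48 members with no overlap 16 rose and the median was 1.05, and among the 30 with overlap 7 rose and the median was 0.82. The Mrps11 and Mrpl46 genes, a pair picked after values were seen, adjoin each other on chromosome 7 (78783119 to 78792989 and 78775236 to 78783531 in GRCm38) on opposite strands with overlapping ends. Mrps11 rose, and Mrpl46 stood at 41.0 ± 6.42 CPM (SD, n = 3) against 69.1 ± 41.9 CPM (SD, n = 2; adjusted p = 0.206).

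Some members lie head to head with another gene. For 18 of 78 members (23.1%) the start of another protein-coding gene lay within 1000 bases upstream on the opposite strand, 26 to 935 bases away, against 9.90% of tested coding genes. The comparison with these partners was chosen after values had been seen and was not tested. The median log2 fold change was 1.07 for these 18 members and -0.38 for their 18 partners, and the member had the higher estimate in 16 pairs. Of the members 6 rose, while of the partners 2 rose and 3 fell. The partners' median exon length was 2958.5 bases.

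Mrps12 and Sars2, the seryl-tRNA synthetase of mitochondria, start 172 bases apart. Sars2 fell from a wild-type mean of 24.2 ± 1.28 CPM (SD, n = 3) to a mutant mean of 7.18 ± 0.709 CPM (SD, n = 2; log2 fold change -1.75 ± 0.39, adjusted p = 0.0339), while Mrps12 rose. Mrps18c and Helq, a DNA helicase, start 29 bases apart, and Helq fell from 24.4 ± 3.27 to 5.35 ± 2.52 CPM (-2.20 ± 0.49, adjusted p = 0.0326). The third partner that fell was Pnpla7, 935 bases from Mrpl41 (adjusted p = 0.0481). In the other direction Mitd1 rose with Mrpl30, 66 bases away (1.30 ± 0.34, adjusted p = 0.045). Ptcd2, 81 bases from Mrps27, rose from 42.5 ± 3.46 to 115 ± 45.2 CPM (adjusted p = 0.0296), while Mrps27 itself was not called.

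Promoter sequence from RefSeq (GRCm38.p6, 250 bases before to 50 after each start) was found for 69 of the 78 members. In these promoters 8 short strings were searched on both strands. The ETS core CCGGAAG, bound by GABP among others, was in 26 of 69 members (37.7%), against 9.93% of 27025 genes with a promoter entry and 18.6% of the 11574 tested genes among them. The YY1 core AAGATGGC was in 12 (17.4%, against 3.19% and 4.93%), and the NRF1 core GCATGCGC in 8 (11.6%, against 3.05% and 5.50%). A TATA box (TATAAA) was in 5 (7.25%, against 15.7% and 9.71%), and CCAAT in 27 (39.1%, against 41.1% and 42.4%). The longer ETS string CCGGAAGT was in 12 (17.4%, against 4.31% and 8.41%). An E box (CACGTG) was in 5 (7.25%, against 8.09% and 11.3%), and the ZNF143 core ACTACAA in 5 (7.25%, against 3.78% and 4.63%). Among members called higher, the ETS core was in 6 of 20 and the YY1 core in 6 of 20, against 20 of 49 and 6 of 49 among the rest. A match describes letters and not binding.

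To show these strings in place, the promoters of the 3 genes with the smallest p among called members that have 1 promoter entry (Mrpl42, Mrpl21 and Mrpl32) are given with that of Mrpl9, added after its values were seen because it lay below the wild type. Capitals mark matches to the ETS, YY1 and NRF1 cores, and each sequence runs 5′ to 3′ along the gene. The entries are Mrpl42 on the minus strand (chr10:95501900-95502199), Mrpl21 on the plus strand (chr19:3282792-3283091), Mrpl32 on the minus strand (chr13:14612988-14613287) and Mrpl9 on the plus strand (chr3:94443086-94443385).
Mrpl42: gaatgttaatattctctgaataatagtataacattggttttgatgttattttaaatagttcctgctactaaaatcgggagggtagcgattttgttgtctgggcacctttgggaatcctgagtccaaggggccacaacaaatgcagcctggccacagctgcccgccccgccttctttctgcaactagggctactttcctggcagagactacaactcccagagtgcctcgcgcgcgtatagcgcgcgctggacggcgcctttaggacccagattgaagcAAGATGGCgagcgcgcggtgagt
Mrpl21: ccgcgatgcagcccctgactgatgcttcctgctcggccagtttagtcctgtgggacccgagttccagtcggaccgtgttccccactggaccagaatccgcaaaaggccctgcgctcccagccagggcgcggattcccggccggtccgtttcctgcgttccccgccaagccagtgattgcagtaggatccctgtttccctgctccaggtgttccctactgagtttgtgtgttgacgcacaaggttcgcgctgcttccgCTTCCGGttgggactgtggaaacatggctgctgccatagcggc
Mrpl32: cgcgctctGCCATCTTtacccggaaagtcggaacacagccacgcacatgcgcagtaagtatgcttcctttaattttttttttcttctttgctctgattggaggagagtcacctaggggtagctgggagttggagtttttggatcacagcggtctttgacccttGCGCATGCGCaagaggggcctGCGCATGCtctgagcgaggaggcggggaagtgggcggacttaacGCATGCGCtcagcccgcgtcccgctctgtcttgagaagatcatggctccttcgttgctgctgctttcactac
Mrpl9: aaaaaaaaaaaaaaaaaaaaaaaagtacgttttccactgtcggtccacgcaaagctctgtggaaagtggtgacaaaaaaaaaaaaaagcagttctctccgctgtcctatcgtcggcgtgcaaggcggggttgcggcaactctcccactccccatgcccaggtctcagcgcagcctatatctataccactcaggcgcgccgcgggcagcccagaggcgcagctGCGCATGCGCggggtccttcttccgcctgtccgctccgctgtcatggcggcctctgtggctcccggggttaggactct
Mrpl42 holds the YY1 core at base 28 after the start, and Mrpl21 the ETS core, read on the other strand, at base 8. Mrpl32, which rose, has the NRF1 core at 3 places and the YY1 core once, and Mrpl9, which was below the wild type in both mutant libraries, has the NRF1 core at 1 place close before its start.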

How the data were processed

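The deposited files hold whole-number counts of reads per gene symbol for each of the 5 samples, which the authors made from reads trimmed with Trimmomatic and aligned with STAR to mm10, per the submitters' processing notes. The sources used here do not name the counter, its strand setting or its annotation. The counts were fitted with edgeR 4.0.16 (R 4.3.3, limma 3.58.1) on all 5 libraries by genotype, with TMM scaling, the tool's own filter on low counts (17062 genes kept), the quasi-likelihood F-test and Benjamini-Hochberg adjustment at 0.05. The common biological coefficient of variation was 0.507. CPM values use TMM-adjusted totals, and SE belongs to the log2 fold change. Library totals of 17459808 to 72414875 counts set the precision, and the count interval covers counting error only. The fitting script was tested on simulated data.

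Gene positions, exon lengths and overlaps came from GENCODE M21 (GRCm38), which 16704 tested symbols matched. Alternatives were other scalings and filters, DESeq2 1.42.0, a replicate block, and each library left out. Named members were those called, the 3 largest and 3 smallest fold changes, the 3 highest and 3 lowest per length, and 6 of particular place or role. From other lists up to 2 called genes of smallest p were named, or 1 of smallest p where none was called. Mrps27, Mrpl46, Ptcd3 and the head-to-head partners were named after their values were seen. The members and all lists were chosen with earlier results of these data known, and the promoter strings after their shares had been seen.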

Additional observations from a re-analysis of the deposited data

How the results depend on the processing

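With libraries scaled by totals alone, 7 members were called higher and 2 lower, the members' median log2 fold change was 0.42, and the estimates of Mrpl12, Mrpl28, Mrpl33 and Mrpl39 turned to -0.10, -0.25, -0.13 and -0.37. Upper-quartile scaling gave 2 called lower, a median of 0.65, a small minus large difference of -0.058 (-0.02 in the analysis reported), and -0.021 for Mrpl28 and -0.11 for Mrpl39. DESeq2 called 34 higher and 2 lower. Small minus large was 0.0036 with no filter, 0.0028 by place in the structure and -0.055 with at least 1 CPM in 3 libraries, and the cause of these shifts was not tested. Without each library in turn, 4 to 50 members were called higher and 0 to 3 lower, the median was 0.87 to 1.20 and small minus large was -0.078 to 0.030. Without Tet2-mutant replicate 3 the estimates of Mrpl12, Mrpl39 and Mrps33 were -0.34, -1.17 and -0.64, and without Tet2-mutant replicate 2 those of Mrpl33 and Mrps36 were -0.11 and -0.15. Over all such fits the highest estimates were 0.81 for Mrpl12, 0.82 for Mrpl33, 0.71 for Mrpl39, 1.78 for Mrps33 and 2.52 for Mrps36.

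Replicate numbers 2 and 3 occur in both genotypes, but nothing states that they pair samples, so the numbers were not taken as pairs. Deviations of same-numbered samples from their genotype means correlated at -0.03 and -0.02. With 2 mutant libraries the deviations of one mirror those of the other, so these values cannot decide on pairing or on a shared batch. With a replicate block on the 4 libraries numbered 2 and 3, 15 members were called higher, small minus large was -0.14, and Mrpl39 stood at -0.20. Depth limits Mrpl53 most, with 3 counts in the mutant libraries.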
